A study of Mus musculus with 17 samples.

Results

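Prostaglandin synthesis and receptor genes were examined in cardiac fibroblasts (CFs) sorted from infarcted mouse hearts on days 1 to 6 after myocardial infarction (days post-infarction, dpi). The 9 genes were chosen by name from the 31053 genes of the count table. They comprised the cyclooxygenases Ptgs1 and Ptgs2, the terminal synthases Ptges and Ptgis, the receptors Ptger2, Ptger4, Ptgfr and Ptgir, and the degrading enzyme Hpgd. All mice were C57BL/6 animals of 8 to 10 weeks carrying the Collagen1a1-GFP reporter, and all had a permanent ligation of the left anterior descending coronary artery. Cells were gated as GFP+, CD31- and CD45-, so a library represents cells in which the collagen reporter was active, and bulk libraries were made by a 3′ method adapted from MARS-seq. Of the 17 libraries analysed here, 4 came from 3 dpi, a single one from 5 dpi and 3 from every other day (1, 2, 4 and 6 dpi), and no uninfarcted heart was analysed here. The question was how the expression of these genes changed over the first days of healing, with 3 to 5 dpi set apart as the window that the study assigned to the transition into reparative cardiac fibroblasts.

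Prostaglandins are lipid mediators made from arachidonic acid, which phospholipases release from membranes. The cyclooxygenases convert it to prostaglandin H2, and terminal synthases turn this intermediate into prostaglandin E2, prostacyclin and the other products, which act on G protein-coupled receptors of the producing cell and its neighbours. Ptgs1 is generally expressed at a steady level, whereas Ptgs2 is an immediate-early gene induced by cytokines, growth factors and tissue injury. In the heart, fibroblasts are a known source of prostacyclin and prostaglandin E2.

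The libraries held between 8021815 and 22029938 counts, with a median of 14123952. Levels are given as CPM, counts scaled to a common total, on library sizes scaled by the trimmed mean of M-values (TMM). The 8 fibroblast markers summed to between 12403.9 and 37994.1 CPM in every library, while Ptprc, which encodes CD45, had at most 37 counts and none in 12 libraries. Pecam1, which encodes CD31, was detected in every library with 7 to 241 counts, at day means of 1.48 to 7.37 CPM over the days with replicates. The sum of 10 macrophage markers lay between 9.29 and 50.8 CPM at 1, 2, 4 and 6 dpi but reached 276.7 and 250.9 CPM in replicates 3 and 4 of 3 dpi and 100.8 CPM at 5 dpi. The 4 libraries of 3 dpi were named by another scheme than the rest. Y-linked counts exceeded Xist counts in every library of 2, 3 and 5 dpi, in 2 of 3 at 1 dpi and in none at 4 and 6 dpi, so a difference between 3 and 4 dpi cannot be told apart from one between the sexes. The imbalance also enters in part the comparisons of 6 dpi with 1 dpi and with 3 to 5 dpi. It likewise enters that of 3 to 5 dpi with 1 to 2 dpi. Because these are bulk samples, fewer cells of a type and less RNA per cell cannot be told apart either. The study's methods call the bulk replicates biological, but the labels do not tie libraries to mice, and the p-values below measure the spread between these libraries.

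Of the members, 8 passed the filter, which required 10 counts or more in 3 or more libraries. Ptgs2 was the only member called, at an adjusted p under 0.05 from edgeR's quasi-likelihood test, by the test of any difference among the 6 days, in which 15.0% of the 14030 genes tested were called. Ptgs1, Ptgfr and Ptgs2 had an unadjusted p under 0.05 in that test. Over successive days, no member was called between 1 and 2 dpi (background 0.178% of genes; no member at an unadjusted p under 0.05), between 2 and 3 dpi (2.94%; 1 member, Ptgs1) or between 3 and 4 dpi (2.71%; 1 member, Ptgfr). From 4 to 6 dpi 1 member, Ptgs2, was called against 0.513% of genes, and from 1 to 6 dpi the same single member was called against 12.1%. The mean of 3 to 5 dpi compared with that of 1 to 2 dpi gave no call among the members (7.48%; Ptgs2 at an unadjusted p under 0.05), and compared with 6 dpi it gave 1, again Ptgs2 (11.5%). These percentages are shares of genes called at the adjusted threshold. The share of all genes at an unadjusted p under 0.05 is not given, so no excess can be read from the unadjusted counts. The 8 tested members had a median log2 fold change of -0.25 at 2 against 1 dpi, -0.04 at 3 against 2, -0.28 at 4 against 3 and 0.14 at 6 against 4 dpi. The median was -0.55 at 6 against 1 dpi, -0.23 for 3 to 5 against 1 to 2 dpi and 0.51 for 3 to 5 against 6 dpi, while over all genes it lay between -0.03 and 0.04 in these comparisons.

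**Figure D1:**
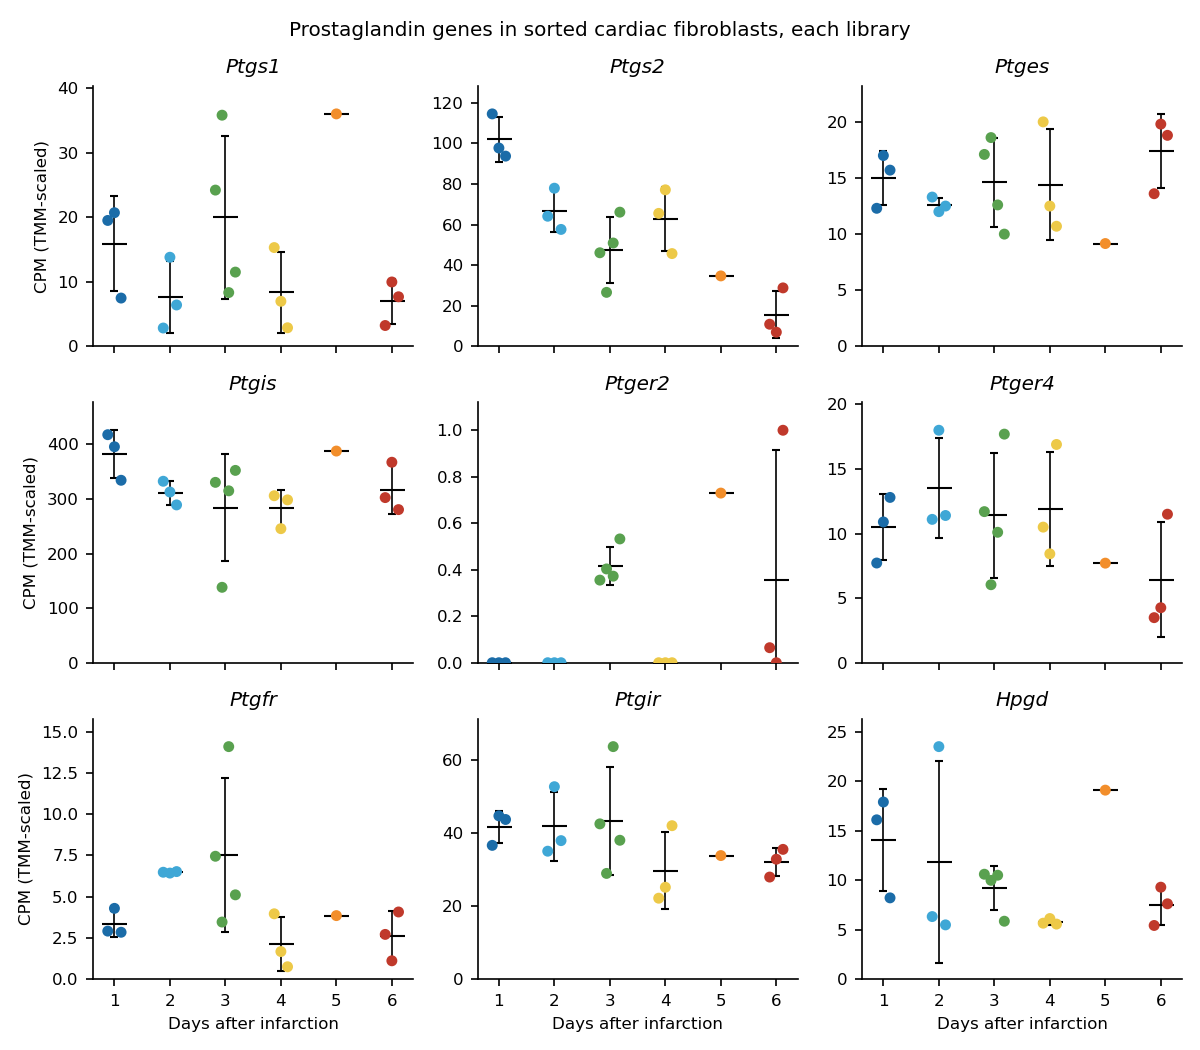
Level of each of the 9 members in every library (points, coloured by day), with the mean and SD of each day (black marks; no SD at 5 dpi, where there was 1 library). Axes give CPM from 0 against days after infarction, each panel on its own scale. Ptgs2 fell from 93.7 to 114.5 CPM at 1 dpi to 6.99 to 28.8 CPM at 6 dpi, while Ptges and Ptgis overlapped between those days.

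Ptgs2, the inducible cyclooxygenase (ENSMUSG00000032487; GRCm38 chr1:150100031-150108227, plus strand), was at its highest on the first day. Its level was 114.5, 97.7 and 93.7 CPM in the 3 libraries of 1 dpi and 64.1, 77.9 and 57.6 CPM in those of 2 dpi. The libraries of 3 dpi held 46.1, 26.6, 50.9 and 66.1 CPM. Those of 4 dpi held 65.5, 77.1 and 45.7 CPM, and the single library of 5 dpi held 34.7 CPM. All 3 libraries of 1 dpi lay above every later library, and the days 2, 3 and 4 overlapped one another. At 6 dpi the levels were 10.9, 6.99 and 28.8 CPM, the last of them above the lowest library of 3 dpi. The day means in descending order were 102.0 ± 11 CPM (SD, n = 3) at 1 dpi, 66.5 ± 10.4 (n = 3) at 2 dpi, 62.8 ± 15.9 (n = 3) at 4 dpi, 47.4 ± 16.3 (n = 4) at 3 dpi, 34.7 at 5 dpi and 15.6 ± 11.6 (n = 3) at 6 dpi.

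The test over all days gave an adjusted p of 0.0029 for Ptgs2 (edgeR quasi-likelihood F-test, Benjamini-Hochberg adjustment). From 1 to 6 dpi Ptgs2 fell by 2.71 on the log2 scale (SE 0.41, adjusted p = 3.3e-04 by edgeR), a 6.54-fold difference with no overlap between the groups. This fall was called whichever of 16 libraries was left out, with log2 fold changes between -3.5 and -2.36. Among the libraries with more Xist than Y-linked counts, of which 1 was from 1 dpi and 3 were from 6 dpi, it was -2.87, a value with a single library on one side that was looked at after seeing the data. From 4 to 6 dpi Ptgs2 fell by 2.01 (SE 0.40, adjusted p = 0.037 by edgeR), again without overlap, and the level over 3 to 5 dpi was 1.59 higher than at 6 dpi (SE 0.37, adjusted p = 0.0099). The neighbouring early days did not pass the test. The log2 fold change was -0.62 (SE 0.39, adjusted p = 0.83 by edgeR) at 2 against 1 dpi although these groups did not overlap, -0.49 (SE 0.36, adjusted p = 0.52) at 3 against 2 dpi and 0.41 (SE 0.36, adjusted p = 0.60) at 4 against 3 dpi. The level over 3 to 5 dpi differed from that of 1 to 2 dpi by -0.81 (SE 0.28, adjusted p = 0.089 by edgeR).

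The call at 6 against 4 dpi rested on single libraries. It held in 9 of the 16 fits with a library left out, with log2 fold changes of -2.8 to -1.66 (adjusted p of 0.0013 to 0.22 by edgeR). The adjusted p (edgeR) was 0.055, 0.057 and 0.053 without replicate 2 or 3 of 1 dpi or replicate 1 of 3 dpi, with the fold change at -1.99 each time, 0.17 and 0.18 without replicate 1 or 2 of 4 dpi (-1.98 and -1.84), and 0.16 and 0.22 without replicate 1 or 2 of 6 dpi (-1.81 and -1.66). The call for 3 to 5 dpi against 6 dpi was lost without replicate 1 or 2 of 6 dpi, with log2 fold changes of 1.39 and 1.24 (adjusted p = 0.073 and 0.082 by edgeR). It held in 14 of the 16 fits with a library left out, which gave log2 fold changes of 1.24 to 2.38 (adjusted p of 3.8e-04 to 0.082 by edgeR). Because Ptgs2 belongs to the immediate-early genes that tissue digestion can induce, 15 other genes of the dissociation response were set beside it. Their summed level was 6815.1 to 10172.0 CPM at 1 dpi and 7465.2 to 8229.6 CPM at 6 dpi, and 2 of the 15, the heat-shock genes Hspa1a and Hspa1b, were lower at 6 than at 1 dpi by the test, with a median log2 fold change over the list of -0.33. At 6 against 4 dpi no gene of the list was called (median -0.08). For 3 to 5 dpi against 6 dpi 1 of the 15, Fosb, was called lower (-1.02, SE 0.27, adjusted p = 0.021 by edgeR), with a median over the list of 0.09. Markers of other cell types also moved in these comparisons. At 6 against 1 dpi 5 of 6 cardiomyocyte markers and 3 of 6 mural markers (pericytes and smooth muscle cells) were called higher, beside 12.1% of all genes called. For 3 to 5 dpi against 6 dpi 5 of the 6 cardiomyocyte markers were called lower, beside 11.5% of all genes called. The parts of dissociation and of these cell types in the level of Ptgs2 were not tested.

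**Figure D2:**
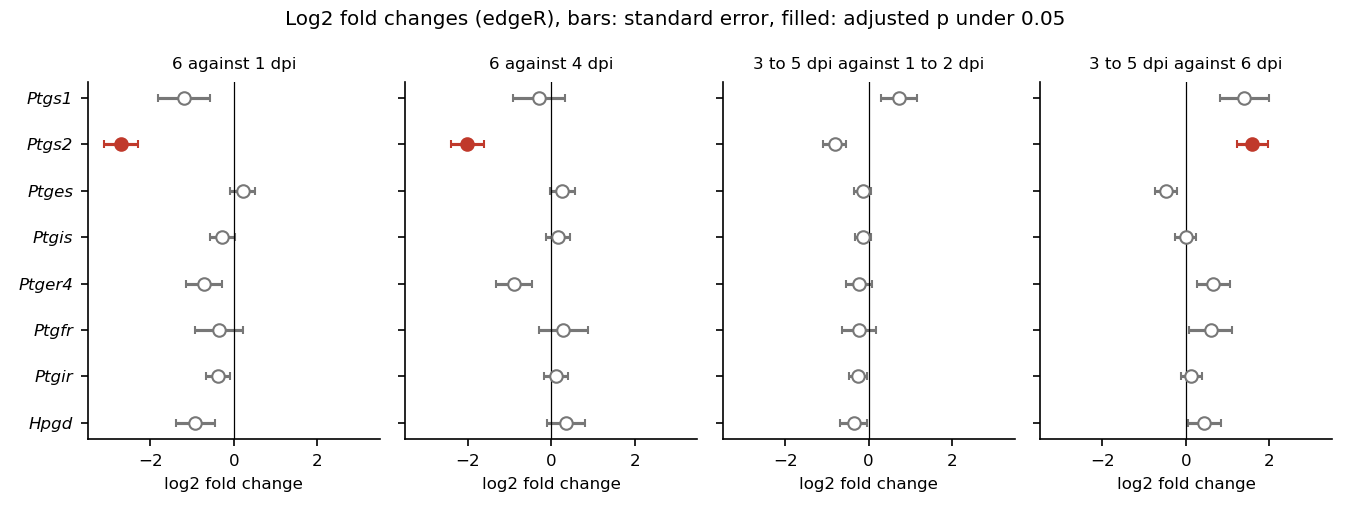
Log2 fold changes of the 8 tested members (points) with the standard error (bars) in 4 comparisons; filled points were called at an adjusted p under 0.05. Ptgs2 was called in 3 of the comparisons, at -2.71, -2.01 and 1.59, and no other member was called in any of them.

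The RefSeq promoter windows of 8 members (250 bases before to 50 after the annotated start, GRCm38.p6) were searched on both strands for 6 short motifs, which were chosen after the Ptgs2 sequence had been seen. The window of Ptgs2, the member that fell, is shown with that of Ptgs1, the cyclooxygenase that was not called, with matches in capitals:
Ptgs2 (chr1:150099781-150100080, plus strand): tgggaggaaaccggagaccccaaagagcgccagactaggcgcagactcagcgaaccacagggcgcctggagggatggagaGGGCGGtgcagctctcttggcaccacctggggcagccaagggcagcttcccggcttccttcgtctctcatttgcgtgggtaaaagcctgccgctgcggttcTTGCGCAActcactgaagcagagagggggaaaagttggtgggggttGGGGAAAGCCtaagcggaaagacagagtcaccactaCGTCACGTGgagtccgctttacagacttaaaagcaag
Ptgs1 (chr2:36230176-36230475, plus strand): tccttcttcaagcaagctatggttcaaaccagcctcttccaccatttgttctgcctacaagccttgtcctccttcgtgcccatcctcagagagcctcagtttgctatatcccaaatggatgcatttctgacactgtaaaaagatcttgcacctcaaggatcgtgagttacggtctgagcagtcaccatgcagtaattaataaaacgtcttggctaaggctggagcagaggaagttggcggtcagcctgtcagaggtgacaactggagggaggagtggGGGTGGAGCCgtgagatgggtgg
In the Ptgs2 window the first base of each match, counted from the start site, was -170 for the GC box GGGCGG, -69 for the C/EBP palindrome TTGCGCAA and -23 for the NF-kB pattern, in which any 5 bases separate GGG from CC. The cAMP response element half-site TGACG, read on the opposite strand from position 14, overlapped the E-box CACGTG at position 17. Among the 8 windows, the E-box, the cAMP half-site and the C/EBP palindrome were each found only in that of Ptgs2. Of all 32851 promoters in the same table, 7.15% held the E-box, 20.8% the half-site and 0.183% the palindrome. Ptgs1 held a single match, to the NF-kB pattern at position 28, which was present in 5 of 8 members and in 50.8% of all promoters. The GC box was found in 6 of 8 members and 35.7% of all promoters, and the TATA box TATAAA only in Hpgd, beside 13.6% of all promoters. These matches describe the letters of the windows and no binding was measured.

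Ptgs1, the constitutive cyclooxygenase (ENSMUSG00000047250; chr2:36230426-36252272, plus strand), varied widely among libraries of the same day. It was measured at 19.5, 20.7 and 7.48 CPM at 1 dpi and at 2.84, 13.8 and 6.41 CPM at 2 dpi. At 3 dpi the libraries held 24.2, 35.8, 8.33 and 11.5 CPM, at 4 dpi 15.3, 6.98 and 2.88 CPM, at 5 dpi 36.0 CPM and at 6 dpi 3.23, 9.97 and 7.68 CPM. The highest levels stood at 3 and 5 dpi, but every day with replicates overlapped every other. The adjusted p over all days was 0.10, and the log2 fold change was 1.38 (SE 0.60, adjusted p = 0.22 by edgeR) at 3 against 2 dpi and 1.40 (SE 0.58, adjusted p = 0.12) for 3 to 5 dpi against 6 dpi. Over all days Ptgs1 was called with the replicate number as a block (adjusted p = 0.034 by edgeR) and with DESeq2 (adjusted p = 0.026). It was also called with every gene of at least 1 count (3.2e-08 by edgeR) and without the 2 macrophage-rich libraries of 3 dpi (0.049 by edgeR).

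Hpgd, the 15-hydroxyprostaglandin dehydrogenase that begins the inactivation of prostaglandins (ENSMUSG00000031613; chr8:56294585-56321043, plus strand), also had single high libraries. Its level was 16.1, 17.9 and 8.21 CPM at 1 dpi, 6.32, 23.5 and 5.48 at 2 dpi, and 10.6, 9.98, 10.5 and 5.85 at 3 dpi. It was 5.65, 6.12 and 5.56 CPM at 4 dpi, 19.1 at 5 dpi and 5.42, 9.29 and 7.61 at 6 dpi. The 3 libraries of 4 dpi lay close together, at 5.77 ± 0.301 CPM (SD, n = 3), below all libraries of 1 dpi. No comparison of Hpgd was called, with an adjusted p of 0.16 over all days and a log2 fold change of -0.92 (SE 0.46, adjusted p = 0.20 by edgeR) at 6 against 1 dpi. Without replicate 2 of 2 dpi the adjusted p over all days was 0.032, and with every gene of at least 1 count it was 0.018 (both by edgeR).

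Both genes were highest in libraries that also held many counts of mesothelial markers, the genes of the epicardial surface layer. The sum of Msln, Upk3b, Upk1b, Wt1, Krt19 and Lrrn4 was 155.9, 199.7 and 69.7 CPM at 1 dpi and 14, 139.4 and 50.7 CPM at 2 dpi. All 6 had counts in every library, with a minimum of 1 count for Wt1. It was 80.8, 173.5, 44.7 and 47.5 CPM at 3 dpi and 57.5, 38.1 and 78.4 CPM at 4 dpi. It reached 204.5 CPM at 5 dpi and 82.2, 599.1 and 70.5 CPM at 6 dpi. Within 1, 2, 3 and 6 dpi the library with the highest sum was also the one with the most Ptgs1, and within 1, 2 and 6 dpi it was the one with the most Hpgd. At 4 dpi it was instead the one with the least of both, at 2.88 CPM of Ptgs1 and 5.56 CPM of Hpgd. The highest sum of all, in replicate 2 of 6 dpi, went with 9.97 CPM of Ptgs1, below 8 other libraries. The part of mesothelial cells in these levels was not tested. None of the 6 markers was called at 6 against 1 dpi. For 3 to 5 dpi against 6 dpi, where Ptgs2 was higher, 1 of the 6, Msln, was called, at -2.26 (SE 0.72, adjusted p = 0.049 by edgeR). Its means over the libraries were 22.3 and 123.0 CPM, and the marker sum at 6 dpi was highest in replicate 2, at 599.1 CPM. Upk3b, Krt19 and Lrrn4 were also lower over 3 to 5 dpi, at -1.80, -0.62 and -0.93, without being called. Upk1b and Wt1 went the other way, at 0.56 and 0.25, also not called. Without the library with the highest sum at each of 1, 2, 3 and 6 dpi, an alternative added after seeing the data, Ptgs2 still fell by 2.39 from 1 to 6 dpi (adjusted p = 0.0015 by edgeR) but was no longer called at 6 against 4 dpi (-1.64, adjusted p = 0.14).

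**Figure D3:**
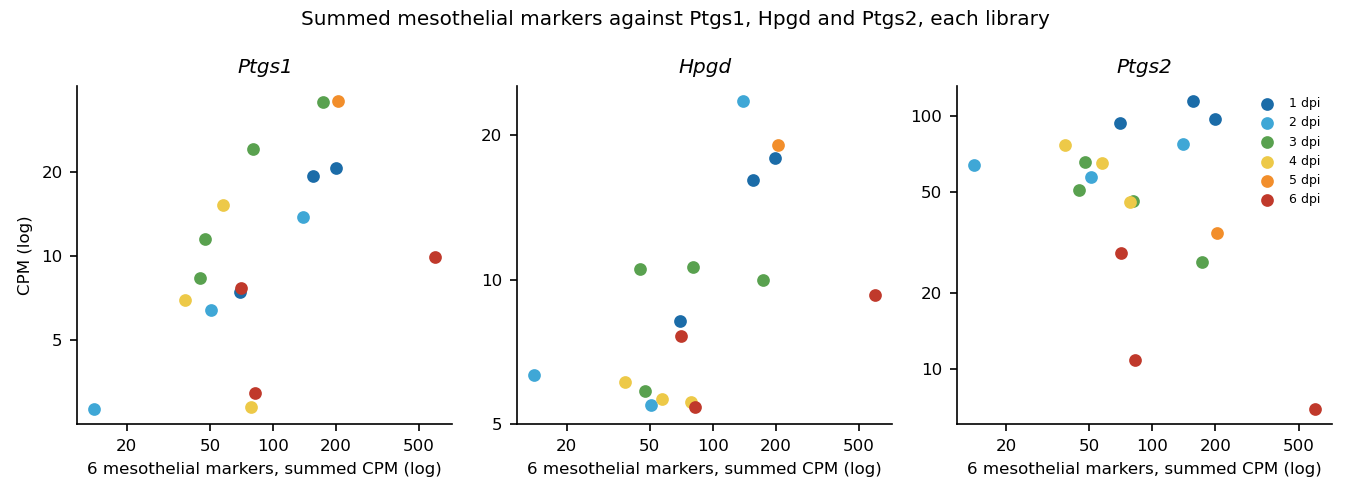
Level of Ptgs1, Hpgd and Ptgs2 (vertical axes, CPM) against the summed level of 6 mesothelial markers (horizontal axes, CPM) in each of the 17 libraries, all axes logarithmic, coloured by day. The libraries richest in Ptgs1, at 35.8 and 36.0 CPM, had marker sums of 173.5 and 204.5 CPM, and the library with the highest sum, 599.1 CPM, had the lowest Ptgs2, 6.99 CPM. The library with the highest Ptgs2, 114.5 CPM, had a sum of 155.9 CPM, and the lowest sum, 14 CPM, went with 64.1 CPM of Ptgs2.

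The terminal synthases were among the steadier members. Ptgis, prostacyclin synthase (ENSMUSG00000017969; chr2:167191805-167240604, minus strand), averaged 382.4 ± 43.3 CPM at 1 dpi (SD, n = 3), 311.3 ± 21.7 at 2 dpi (n = 3) and 283.8 ± 98.4 at 3 dpi (n = 4). It averaged 283.1 ± 32.8 CPM at 4 dpi (n = 3) and 316.6 ± 45 at 6 dpi (n = 3), with 387.6 CPM at 5 dpi. Replicate 2 of 3 dpi, at 138.1 CPM, stood apart from all other libraries, which held 245.5 to 417.6 CPM. That library differed from the others of 3 dpi in more than Ptgis, as given below under the flagged results. The log2 fold change of Ptgis at 6 against 1 dpi was -0.27 (SE 0.29, adjusted p = 0.58 by edgeR). Ptges, the microsomal prostaglandin E synthase (ENSMUSG00000050737; chr2:30889471-30929863, minus strand), lay between 9.16 CPM at 5 dpi and 20 CPM in a library of 4 dpi. Its day means ran from 12.6 ± 0.644 CPM at 2 dpi (SD, n = 3) to 17.4 ± 3.31 CPM at 6 dpi (n = 3), and it differed by 0.21 (SE 0.30, adjusted p = 0.69 by edgeR) on the log2 scale at 6 against 1 dpi. No comparison of either synthase was called.

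Ptgir, the prostacyclin receptor (ENSMUSG00000043017; chr7:16906490-16910905, plus strand), had 36.7, 44.8 and 43.8 CPM at 1 dpi and 28.0, 32.9 and 35.6 CPM at 6 dpi. These groups did not overlap, but the difference of -0.38 (SE 0.29, adjusted p = 0.42 by edgeR) was not called. The libraries of 2 and 3 dpi ranged from 29.0 to 63.8 CPM and those of 4 dpi from 22.2 to 42.1 CPM. Ptger4, the EP4 receptor for prostaglandin E2 (ENSMUSG00000039942; chr15:5206661-5244187, minus strand), averaged 10.5 ± 2.54 CPM at 1 dpi (SD, n = 3), 13.5 ± 3.87 at 2 dpi (n = 3), 11.4 ± 4.82 at 3 dpi (n = 4) and 11.9 ± 4.41 at 4 dpi (n = 3), and stood at 3.49, 4.26 and 11.5 CPM at 6 dpi. It differed by -0.89 (SE 0.44, adjusted p = 0.27 by edgeR) at 6 against 4 dpi. Without replicate 3 of 6 dpi it was called, at -1.61 (adjusted p = 0.030) against 4 dpi, -1.44 (adjusted p = 0.031) against 1 dpi and 1.39 (adjusted p = 0.027) for 3 to 5 dpi against 6 dpi. An exon of Ttc33, which had 3297 counts in all libraries, overlaps Ptger4 on the opposite strand, and the strand setting of the counting was not stated in the sources used here, so reads of both genes cannot be told apart.

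Ptgfr, the receptor for prostaglandin F2alpha (ENSMUSG00000028036; chr3:151796502-151837630, minus strand), was low throughout. It had 2.91, 4.29 and 2.84 CPM at 1 dpi, 6.48, 6.43 and 6.52 at 2 dpi and 7.45, 3.46, 14.1 and 5.11 at 3 dpi. It then had 3.96, 1.67 and 0.748 CPM at 4 dpi, 3.85 at 5 dpi and 2.71, 1.11 and 4.07 at 6 dpi. The libraries of 2 dpi lay above all of 1 dpi and, apart from 2 libraries of 3 dpi, above all other libraries. The log2 fold change at 4 against 3 dpi was -1.80 (SE 0.57, adjusted p = 0.096 by edgeR), and without replicate 2 of 3 dpi it was called at -2.03. Over all days its adjusted p was 0.10, which became 0.040 without replicate 2 of 3 dpi and 0.046 without replicate 1 of 4 dpi. It was 0.028 with DESeq2 and 0.012 by edgeR with every gene of at least 1 count.

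Ptger2, the EP2 receptor (ENSMUSG00000037759; chr14:44988195-45003820, plus strand), was not tested, because only 1 library reached 10 counts. It had 0 counts in all 9 libraries of 1, 2 and 4 dpi, where a count of 0 allows up to 0.38 CPM in the shallowest library and 0.124 CPM in the deepest on the same scale, taking 3 counts as the limit. It had 4, 5, 5 and 5 counts at 3 dpi, 7 counts at 5 dpi and 1, 0 and 13 counts at 6 dpi. All libraries with more than 1 count of Ptger2 belonged to 3, 5 and 6 dpi. Macrophage markers were highest at 3 and 5 dpi, but replicate 3 of 6 dpi, with the most Ptger2, lay within their 27.2 to 41 CPM of that day, and their part in Ptger2 was not tested.

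The genes whose log2 CPM followed each member most closely over the 17 libraries were listed as a description, among genes with a mean of at least 100 counts. For Ptgs2 these were Wapl and Wdr75 (Pearson r = 0.946 each) and Cct4 (0.943). For Ptgs1 they included Upk1b (0.865), one of the mesothelial markers above, and the keratin Krt8 (0.803), and for Hpgd they were Upk1b (0.755), the keratin Krt14 (0.739) and Slc4a4 (0.702). Ptgis was closest to Hdgfl2 (0.910), A430005L14Rik (0.889) and Tex261 (0.885), and Ptges to Cxxc1 (0.752), Mtx1 (0.748) and Arfrp1 (0.698). Among the receptors, Ptgir was closest to Elmo1 (0.885), Maob (0.883) and Cbx7 (0.831), Ptger4 to Erap1 (0.867), Ulk2 (0.864) and Becn1 (0.859), and Ptgfr to Fkbp5 (0.85), Cnmd (0.825) and Rasa3 (0.805). These libraries share days, depth and cell composition, which all enter the correlations.

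Of 33 other genes of arachidonic acid release, prostanoid and leukotriene metabolism and signalling, 32 were in the table and 25 were tested. The test over all days called 6 of them, beside 15.0% of all genes. The successive days gave 0 calls at 2 against 1 dpi (0.178% of all genes; 2 pathway genes at an unadjusted p under 0.05), 1 lower at 3 against 2 dpi (2.94% of all genes called), 2 higher at 4 against 3 dpi (2.71%) and 0 at 6 against 4 dpi (0.513%; 6 at an unadjusted p under 0.05). The percentages count genes called at the adjusted threshold, so no excess can be read from the unadjusted counts beside them. At 6 against 1 dpi 3 of the 25 were higher and 1 was lower, near the 12.1% of all genes. For 3 to 5 dpi, 3 were higher and 1 was lower than at 1 to 2 dpi (7.48% of all genes), and 2 were higher and 3 lower than at 6 dpi (11.5%).

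Tbxa2r, the thromboxane A2 receptor, rose over the days on which Ptgs2 fell. Its level was 4.08 to 5.44 CPM at 1 dpi, 3.80 to 6.93 at 2 dpi and 7.62 to 20 at 3 dpi. It was 25.5 to 36.5 CPM at 4 dpi, 23.3 CPM at 5 dpi and 40.4 to 64.9 CPM at 6 dpi, so that neither the libraries of 3 and 4 dpi nor those of 4 and 6 dpi overlapped. It rose by 3.59 on the log2 scale from 1 to 6 dpi (SE 0.37, adjusted p = 7.7e-06 by edgeR), called whichever of 16 libraries was left out, while Ptgs2 fell by 2.71 over the same days. Its rise of 1.36 from 3 to 4 dpi (SE 0.31, adjusted p = 0.023 by edgeR) was lost without replicate 1, 3 or 4 of 3 dpi or 1 or 2 of 4 dpi (1.19 to 1.76 over the fits with a library left out), with only the days compared (adjusted p = 0.095), and without the 2 macrophage-rich libraries (1.08, adjusted p = 0.15). Mural markers, genes of pericytes and smooth muscle cells, summed to 41 to 76.8 CPM at 1 dpi and 142.4 to 172.6 CPM at 6 dpi, all 6 being detected in every library. Cardiomyocyte markers summed to 17.6 to 36.1 CPM and 81.6 to 194.1 CPM on these days, with Ttn at 0 in 7 libraries; the protocol given for hearts of 3 and 5 dpi strained out cardiomyocytes before the GFP gate. The part of either cell type, or of sex, in the level of Tbxa2r was not tested.

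Ptges3, the cytosolic prostaglandin E synthase that is also the p23 co-chaperone, was lowest at 3 dpi, with 1.95 to 13.2 CPM, beside 28.8 to 45.8 CPM at 2 dpi and 33.7 to 41.2 CPM at 4 dpi. It was 43.9 to 78 CPM at 1 dpi, and its 12.6 CPM at 5 dpi and 11 to 37.6 CPM at 6 dpi overlapped the libraries of 3 dpi. It fell by 2.18 from 2 to 3 dpi (SE 0.48, adjusted p = 0.018 by edgeR) and rose by 2.31 from 3 to 4 dpi (SE 0.48, adjusted p = 0.013). The first call was lost without replicate 2 or 3 of 2 dpi and the second without replicate 2 of 4 dpi. With only the days compared they were -2.19 and 2.31 (adjusted p = 0.064 and 0.065 by edgeR). Without the libraries richest in mesothelial markers the first was -2.07 (adjusted p = 0.069 by edgeR). The test over all days was called in all 16 fits with a library left out and in 10 of 10 other settings. Between 2 and 3 dpi 3 macrophage, 2 mural and 1 endothelial marker were called higher. The fibroblast marker Lum (-2.03) and the cardiomyocyte marker Nppa (-2.78) were called lower. Between 3 and 4 dpi Lum (2.07) and 4 of 6 cardiomyocyte markers were called higher. Their part in the level of Ptges3 was not tested. The other genes called over all days were Prxl2b (prostamide and prostaglandin F synthase), Cbr1 (carbonyl reductase), Alox5ap (the 5-lipoxygenase activating protein) and Lta4h (leukotriene A4 hydrolase), with adjusted p of 0.014, 0.036, 0.021 and 0.031. Their calls held in 15, 9, 12 and 8 of the 16 fits with a library left out. Prxl2b was lost without replicate 2 of 6 dpi. Cbr1 was lost without replicate 3 of 1 dpi, 1, 3 or 4 of 3 dpi, 2 of 4 dpi, or 2 or 3 of 6 dpi. Alox5ap was lost without replicate 2 or 3 of 1 dpi or 3 or 4 of 3 dpi, and Lta4h without any of the 3 of 1 dpi, 1, 3 or 4 of 3 dpi, or 1 or 2 of 6 dpi. Alox5ap reached 16.6 CPM at 3 dpi, beside 0.880 to 1.52 CPM at 1 dpi. Without the 2 libraries of 3 dpi that held the most macrophage markers, the adjusted p (edgeR) was 0.082 for Alox5ap, 0.11 for Cbr1 and 0.077 for Lta4h. Without all libraries of 3 dpi it was 0.066 for Alox5ap, 0.25 for Cbr1, 0.062 for Lta4h and 0.18 for Prxl2b. Without the libraries richest in mesothelial markers it was 0.12 for Cbr1, 0.088 for Lta4h and 0.15 for Prxl2b.

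Pla2g4a, Plaat3 and Ltc4s were not called over all days but in single comparisons, and are named after their values were seen. Pla2g4a, the cytosolic phospholipase A2 that releases arachidonic acid, was lower at 6 than at 1 dpi, going from 14.7 to 33.3 CPM at 1 dpi to 4.77 to 14.1 CPM at 6 dpi (log2 fold change -1.45, SE 0.44, adjusted p = 0.039 by edgeR). That call was lost without replicate 1 or 2 of 1 dpi or 2 or 3 of 6 dpi, where the adjusted p reached 0.17, and without the libraries richest in mesothelial markers (-1.06, adjusted p = 0.22). Pla2g4a was also higher over 3 to 5 dpi than at 6 dpi by 1.35 (SE 0.40, adjusted p = 0.037 by edgeR), a call lost without replicate 3 or 4 of 3 dpi, 2 of 4 dpi, or 2 or 3 of 6 dpi, with fold changes of 1.04 to 1.79 over the fits with a library left out. That call was also lost without the libraries richest in mesothelial markers (1.05, adjusted p = 0.15), without the 2 macrophage-rich libraries (1.27, adjusted p = 0.068), without all of 3 dpi (1.27, adjusted p = 0.11) and with only the days compared (1.35, adjusted p = 0.067). Plaat3, another phospholipase, was higher at 6 than at 1 dpi by 0.92 (SE 0.29, adjusted p = 0.043 by edgeR) and held in 4 of 16 fits with a library left out, with fold changes between 0.64 and 1.14. Without the libraries richest in mesothelial markers its difference was 0.46 (adjusted p = 0.39). Ltc4s, leukotriene C4 synthase, was higher by 3.35 (SE 0.93, adjusted p = 0.025 by edgeR), from 0 to 0.701 CPM to 0.384 to 7.62 CPM, and was lost without replicate 1 or 3 of 1 dpi or 1 of 6 dpi, at 2.18 to 4.7 over all such fits. It was also higher over 3 to 5 dpi than over 1 to 2 dpi, by 2.08 (SE 0.62, adjusted p = 0.045 by edgeR), which held in 4 of 16 fits with a library left out.

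**Figure D4:**
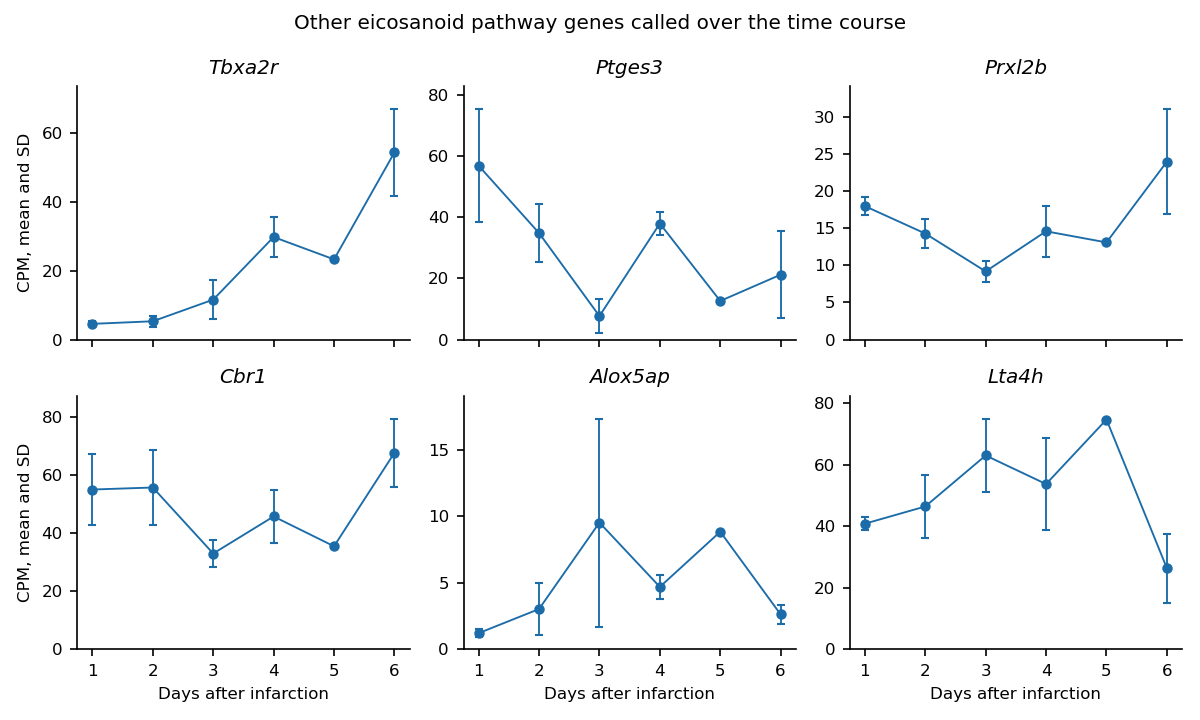
Mean level (points, CPM, axes from 0) with SD (bars) of the 6 other pathway genes called over all days, against days after infarction; 5 dpi is a single library without SD. Tbxa2r rose from 4.56 CPM at 1 dpi to 54.4 CPM at 6 dpi, and Ptges3 was lowest at 3 dpi, at 7.67 CPM.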

How the data were processed

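Bulk 3′ libraries adapted from MARS-seq were made from sorted cardiac fibroblasts. The authors aligned reads with STAR to mm10 and deposited raw counts per gene made with featureCounts on the Ensembl annotation; no collapse of molecular identifiers and no strand setting were stated, so amplification and overlapping antisense genes can enter the counts. The deposited counts were used as they stand. Of 31053 genes, 119 were given by identifier only. The 14030 genes that reached 10 counts in 3 or more libraries were fitted with edgeR 4.0.16 in R 4.3.3 (TMM, quasi-likelihood F-test, day as factor, all 17 libraries, no block), with Benjamini-Hochberg adjustment and a threshold of 0.05. Standard errors were the absolute fold change over the root of F, and the 3 to 5 dpi value was the mean of the day coefficients. The single 5 dpi library thus weighed as much in that value as all libraries of 3 dpi together. A self-test on simulated counts was run. Levels are CPM on TMM sizes, with a prior count of 2 on the log2 scale. Intervals allowed by a count of 0 cover counting error only. Alternatives were DESeq2 1.42.0, its size factors, other filters, a robust spread, the replicate number as a block, fewer days and each library left out. After seeing the data 4 more were added. The single 5 dpi library took replicate number 3 from its title, although its count column carries number 1. Positions were taken from GENCODE on GRCm38 and promoters from RefSeq (GRCm38.p6), where 8 of 9 members matched; Ptgis is named only. All members were named, with the wider pathway genes called over all days and the 3 genes most like each tested member, of which 1 is not reported here. The members and lists were chosen with earlier results of these data known.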

Additional observations from a re-analysis of the deposited data

Results flagged for a closer look

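Among the 4 libraries of 3 dpi, 33 levels of members and wider pathway genes were examined for a library far from the others by Dixon's ratio of gap to range on log2 CPM. Of these, 4 exceeded the critical value, where 1.65 would be flagged by chance if the levels were independent. Replicate 2 differed from the other libraries of 3 dpi by a chi-square per degree of freedom of 154.95 to 209.95. Among those others it was 22.08 to 35.12, so flags in replicate 2 need not be independent of one another. Ptgis in replicate 2 had a ratio of 0.880, with 138.1 CPM beside 314.8 to 352.2 CPM in the other 3 libraries. Hpgd in replicate 4 had a ratio of 0.906, with 5.85 CPM beside 9.98 to 10.6 CPM. Pla2g15, a lysosomal phospholipase, in replicate 2 had a ratio of 0.847, with 16.7 CPM beside 31.6 to 35.4 CPM. Akr1b3, an aldo-keto reductase, in replicate 2 had a ratio of 0.931, with 262.9 CPM beside 148.0 to 154.0 CPM. The causes were not tested.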

How the results depend on the processing

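No member changed direction in a called comparison under any alternative: the 4 calls, all of Ptgs2, were kept in 95 recomputed results and lost in 12, and of the results not called 1564 stayed so and 25 became called. The 80 recomputed differences in level stayed within the spread of the libraries. The fall of Ptgs2 from 1 to 6 dpi was called in 11 of 11 settings other than the omission of a single library, with log2 fold changes of -2.87 to -2.39, the first from the fit with a single 1 dpi library, which was assumed to vary like the others, and in 16 of 16 with a library left out. At 6 against 4 dpi it was called in 8 of 11 and 9 of 16. The number of members called over all days was 1, and became 3 with DESeq2 (Ptgs1, Ptgs2 and Ptgfr), 4 with every gene of at least 1 count, 2 with the replicate block (Ptgs1 and Ptgs2), 2 without the 2 macrophage-rich libraries of 3 dpi, and 1 to 2 with a library left out. Between 2 and 3 dpi it was 0, and 1 with every gene of at least 1 count (Ptgs1). Between 3 and 4 dpi it was 0, and became 1 with DESeq2 (Ptgfr), 2 with every gene, 1 without the libraries richest in mesothelial markers and 0 to 1 with a library left out. Between 4 and 6 dpi it was 1, and became 0 with only these days and with only libraries with more Xist than Y-linked counts, where the fold change of Ptgs2 was -2.0 both times beside -2.01 (adjusted p = 0.14 by edgeR) and where the latter removed no library of either day, and without the libraries richest in mesothelial markers, and 0 to 2 with a library left out. Between 1 and 6 dpi it was 1, and became 2 with every gene and 1 to 2 with a library left out. For 3 to 5 against 1 to 2 dpi it was 0, and became 1 (Ptgs2) with DESeq2, with every gene and with only these days, and 0 to 1 with a library left out. For 3 to 5 against 6 dpi it was 1, and became 2 with every gene and 0 to 2 with a library left out. The causes were not tested. Alternatives by sex-linked counts, marker-rich libraries and macrophage-rich libraries were chosen after seeing the data. The replicate numbers did not pair the libraries: deviations from the day means of same-numbered libraries had a mean correlation of 0.011 over 30 pairs, beside -0.005 over 72 others. Of the wider pathway calls, recomputation kept 474 and lost 111, among them those over all days of Alox5ap, Cbr1 and Lta4h with the replicate block (adjusted p = 0.15, 0.064 and 0.073 by edgeR), that of Alox5ap for 3 to 5 against 1 to 2 dpi (1.67, adjusted p = 0.065), that of Pla2g4a for 3 to 5 against 6 dpi (1.34, adjusted p = 0.065) and that of Plaat3 at 6 against 1 dpi (0.89, adjusted p = 0.072). Low levels, of a few CPM for Ptgfr and under 1 CPM for Ptger2, which was not tested, and 1 library at 5 dpi limit what could be detected.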
